A study of Mus musculus with 4 samples.

Results

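The tumour necrosis factor (TNF) ligand and receptor superfamilies were examined in the open chromatin of mouse MPP3 cells. The members are the protein-coding genes whose symbol begins with Tnfsf or Tnfrsf, together with Tnf, Lta, Ltb, Ltbr, Fas, Fasl, Cd27, Cd40, Cd70 and Cd40lg, which gave 42 of 21887 genes. Peaks with their midpoint in a member's gene body or within 20 kb of it, joined across libraries where they shared at least 1 bp, gave 207 of 77914 regions. These bone marrow progenitors are multipotent but lean towards the granulocyte and monocyte lineages. They were sorted from WT-iMOS mice 3 months of age and profiled by ATAC-seq, which marks accessible DNA by the places where a transposase can insert. The series concerns the transcription factor Bcl11a in these cells. There were 2 T2 libraries and 2 T1 libraries, all from the same mouse model, tissue, age and sorted population.

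The labels do not say what T2 and T1 stand for, nor whether the replicates are separate animals. The deposited lists of a group carry the same first replicate number and differ in a second one, so both may come from 1 sample and the spread between replicates may be technical. The peak lists carry no read counts, so depth is unknown. After restriction to the autosomes and the sex chromosomes, the lists held 66764 and 62704 peaks in T2 replicates 1 and 2, and 58454 and 54045 peaks in T1 replicates 1 and 2. Regions are called shared where all 4 libraries had a peak, T2-only where both T2 libraries and neither T1 library had one, and T1-only in the opposite case. Strength is given as a rank, the percentile of the region's strongest peak within its own list by the authors' −log10 q, with 100 the strongest. A shared region ranked higher in one group where both of its ranks lay above both ranks of the other group. With 2 libraries against 2, an exact two-sided permutation test cannot give a p below 0.333, so no difference here passes a test. In bulk libraries, fewer cells that carry an open site and less opening per cell cannot be told apart.

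The sorted population carried open sites at its own marker genes. Of 8 MPP3 and myeloid progenitor genes, 7 had a peak at the start or in the body in all 4 libraries. The start of Mpo, the gene for myeloperoxidase, ranked 51.1 and 45.4 in T2 and had no peak in either T1 library. The mature B cell markers Cd79a, Pax5 and Ms4a1 were not open in all 4 libraries, and their mean ranks were at most 18.7, with a missing peak counted as 0. Of the T cell markers, Cd3e, Cd3g and Cd8a had no peak in any library, and Lck was the one open in all 4. Of the NK cell markers Prf1 was open in all 4 and Ncr1 and Klrb1c in none. Klf1 and Epor, of the erythroid list, and Ly6g, Ngp and S100a9, of the mature neutrophil list, had no peak, while S100a8 had a peak in the T1 libraries alone, at ranks 34.4 and 38.1. Of the endothelial markers Cdh5 and Kdr were open in all 4. The part of Mpo, S100a8 or any other marker in the differences given below was not tested.

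Ligands of the TNF superfamily are mostly membrane-bound trimers that can be shed, and they cluster receptors of the matching family on neighbouring cells. Receptors with a death domain can start apoptosis or inflammatory signalling through adaptors such as TRADD and FADD. Most other receptors bind TRAF proteins and activate NF-kappaB, and decoy receptors bind ligand without signalling. In bone marrow the families are known for effects on progenitor survival, lymphocyte costimulation, B cell maintenance and bone resorption.

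The 42 members comprised 18 ligands and 24 receptors, of which 5 carry a death domain, 4 are decoy or soluble receptors and 15 are other receptors. They lay on 14 chromosomes, with 9 members on chromosome 4 and 8 on chromosome 17. Each member had between 2 and 13 regions, with a median of 5. Neighbouring members share regions: 30 regions were counted at more than 1 member, and 15 members were involved. Of the 207 regions, 82 had their midpoint inside a member, 29 touched a start window and 109 had a gene outside the superfamilies within 20 kb. The peaks that each library contributed covered 178 and 172 of the 207 regions in T2 and 170 and 155 in T1. That is 86.0% and 83.1% in T2 and 82.1% and 74.9% in T1, where the same libraries had 84.9% and 79.2% (T2) and 74.4% and 68.3% (T1) of all regions.

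Start windows are taken from RefSeq (GRCm38.p6) and run from 250 bases before to 50 bases after a transcription start. They were available for 32 members, in 36 windows. Members without one were Tnfsf4, Tnfsf12, Tnfsf9, Cd70, Cd40lg, Cd40, Tnfrsf10b, Tnfrsf11b, Tnfrsf22 and Tnfrsf26. The windows of 4 members are printed here, taken from the 6 members whose windows carry the AP-1 letters TGACTCA, so their having these letters follows from the choice. AP-1 is a dimer of Fos and Jun family factors. Of them Tnfrsf8 had the start with the largest rank difference towards T2, Tnfsf13b had the start that was strong in T1 alone, and Fas and Tnfsf14 had starts open in all 4 libraries that ranked higher in T2. Each is given 5′ to 3′ in the direction of transcription, in lower case, with capitals for the AP-1 letters, which lie on the opposite strand and therefore read TGAGTCA.
Tnfrsf8, chr4:145315115-145315414, minus strand: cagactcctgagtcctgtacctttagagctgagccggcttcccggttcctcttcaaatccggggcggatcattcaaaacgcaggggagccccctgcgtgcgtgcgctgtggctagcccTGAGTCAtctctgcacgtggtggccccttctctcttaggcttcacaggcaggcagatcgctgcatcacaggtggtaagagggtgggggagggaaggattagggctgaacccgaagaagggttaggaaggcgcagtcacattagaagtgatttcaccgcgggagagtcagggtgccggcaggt
Tnfsf13b, chr8:10006217-10006516, plus strand: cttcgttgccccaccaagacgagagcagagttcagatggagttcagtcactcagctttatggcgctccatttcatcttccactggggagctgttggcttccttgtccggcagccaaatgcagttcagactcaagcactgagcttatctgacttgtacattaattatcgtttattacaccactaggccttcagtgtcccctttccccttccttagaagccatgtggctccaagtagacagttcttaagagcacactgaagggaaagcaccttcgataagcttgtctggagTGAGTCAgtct
Fas, chr19:34290409-34290708, plus strand: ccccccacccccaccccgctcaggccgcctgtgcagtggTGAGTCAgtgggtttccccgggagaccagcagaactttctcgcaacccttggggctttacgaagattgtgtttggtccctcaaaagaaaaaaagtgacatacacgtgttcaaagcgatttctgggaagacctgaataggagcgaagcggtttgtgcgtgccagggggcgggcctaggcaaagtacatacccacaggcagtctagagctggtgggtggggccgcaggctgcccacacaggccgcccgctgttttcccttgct
Tnfsf14, chr17:57194132-57194431, minus strand: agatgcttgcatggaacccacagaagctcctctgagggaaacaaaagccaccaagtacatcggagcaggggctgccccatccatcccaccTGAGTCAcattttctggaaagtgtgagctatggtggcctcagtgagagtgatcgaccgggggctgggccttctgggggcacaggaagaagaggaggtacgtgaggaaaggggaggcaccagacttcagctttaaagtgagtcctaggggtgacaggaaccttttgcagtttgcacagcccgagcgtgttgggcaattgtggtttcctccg

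Counted from the start, the AP-1 letters begin at -132 in Tnfrsf8, at 39 in Tnfsf13b, at -211 in Fas and at -160 in Tnfsf14. They also occurred at -133 in Tnfsf13 and at -15 in a window of Tnfrsf9. In all, 6 of 32 members (18.75%) held them, against 5.40% of 17492 protein-coding genes with a window. Each of those 6 members had a peak in at least 1 library at a window that holds the letters. Of all 32 members, 28 had a start peak in at least 1 library. Over all genes, 418 of the 990 windows with the letters had such a peak. Among start windows open in all 4 libraries, 4 of 24 member windows (16.7%) held the AP-1 letters, against 2.98% of 12001. The ETS letters GAGGAA, read by PU.1 and related factors, were found in 12 of 32 members (37.5%) and in 30.5% of all genes. The RUNX letters TGTGGT were found in 6 members (18.75%) and in 17.2% of all genes. Of the kappaB motif of NF-kappaB factors a single narrow form was searched, GGGA and TTCC with 2 free bases between them, and it was matched in 1 member, Ltb, at -87, and in 1.64% of all genes. Other kappaB forms were not searched. Both strands were searched, 0 pairs of different motifs overlapped in the members' windows, and these matches describe the sequence and not binding.

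Most members had an accessible start. A peak touched the start window of 28 of 32 members (87.5%) in at least 1 library, against 62.4% of all genes, and of 22 members (68.75%) in all 4 libraries, against 58.4% of all genes. By window, 24 of 36 (66.7%) were open in all 4 libraries, against 56.4% of 21263. No member start window was T2-only or T1-only, where 0.80% and 0.08% of the 21263 windows were. The 24 windows open in all 4 libraries had a median GC content of 57.5% and a median of 11.5 CG dinucleotides, and the other 12 had 50.3% and 6. Over all genes the medians were 62% and 22 in open windows and 48.3% and 3 in the others.

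**Figure D1:**
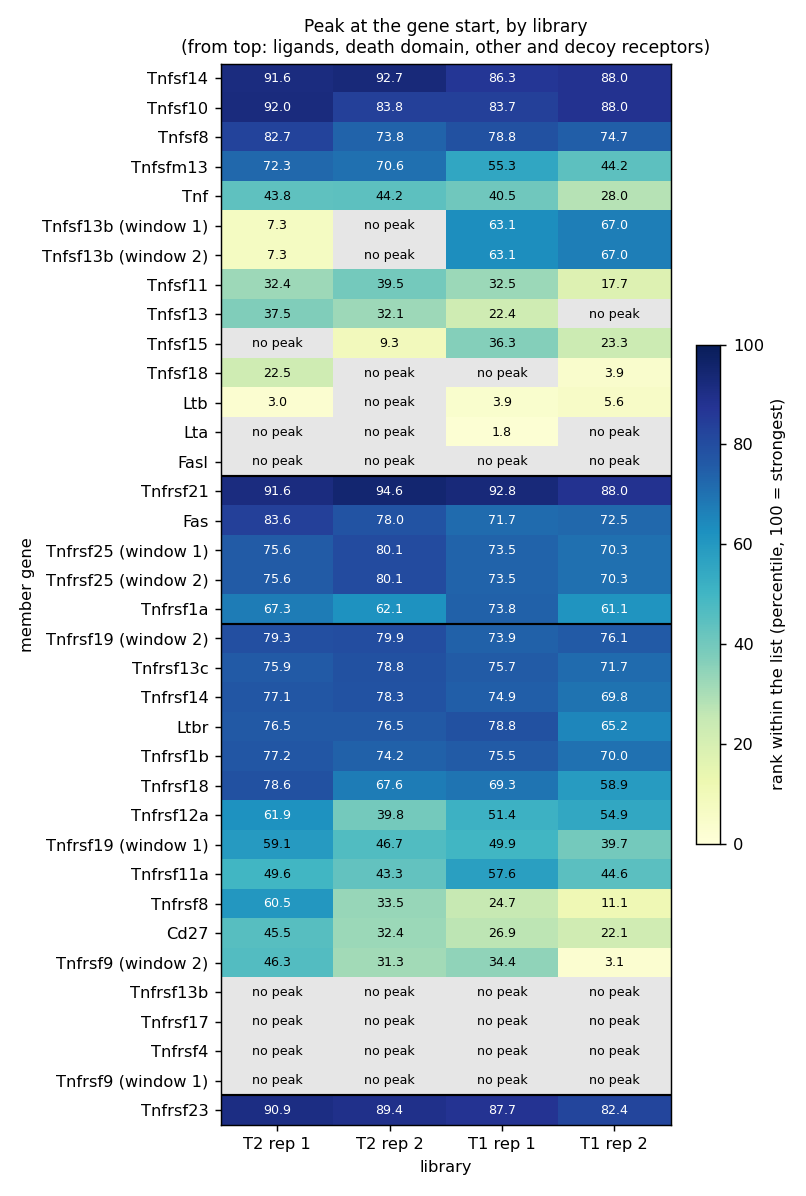
Rank of the strongest peak at each of the 36 start windows (rows, by role) in each of the 4 libraries (columns). Dark cells are strong peaks and grey cells have no peak. Tnfsf14, Tnfsf10, Tnfrsf21 and Tnfrsf23 are dark in every library, and Tnfsf13b is dark in the T1 libraries alone.

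Among the ligands, 2 starts stood near the top of every list. Tnfsf14, the ligand LIGHT that binds Tnfrsf14 and the lymphotoxin beta receptor, ranked 91.6 and 92.7 in T2 and 86.3 and 88.0 in T1. The start of Tnfsf10, the death ligand TRAIL, ranked 92.0 and 83.8 in T2 and 83.7 and 88.0 in T1, and the groups overlapped. Tnfsf8, the ligand of Tnfrsf8, followed with start ranks of 82.7 and 73.8 in T2 and 78.8 and 74.7 in T1. The groups did not overlap at Tnfsf14, where T2 was higher. Tnf itself, the founding inflammatory cytokine, had a start of middle rank, 43.8 and 44.2 in T2 and 40.5 and 28.0 in T1. The start of Tnfsf11, the osteoclast ligand RANKL, ranked 32.4 and 39.5 in T2 and 32.5 and 17.7 in T1.

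Other ligand starts were weak or patchy. Tnfsf15, the ligand of Tnfrsf25, had a start peak of rank 9.29 in T2 replicate 2 and none in T2 replicate 1, against 36.3 and 23.3 in T1. The start of Tnfsf13, the B lineage ligand APRIL, ranked 37.5 and 32.1 in T2 and 22.4 in T1 replicate 1, with no peak in T1 replicate 2. Ltb, whose product forms the membrane lymphotoxin with that of Lta, had start ranks of 2.95 in T2 replicate 1 and of 3.87 and 5.60 in T1. For Lta the sole start peak was 1 of rank 1.85 in T1 replicate 1, and Tnfsf18, the ligand of Tnfrsf18, had 1 of rank 22.5 in T2 replicate 1 and 1 of 3.91 in T1 replicate 2. Fasl, the ligand of Fas, had no start peak in any library, although its 5 regions were all shared. All 5 lay outside the gene. One of them, 6407 bp before the start at chr1:161794562-161795243, ranked 82.4 and 88.9 in T2 and 78.4 and 74.2 in T1.

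Tnfsf13b encodes BAFF, a survival factor for B cells. Its start region, chr8:10006246-10006862, ranked 7.33 in T2 replicate 1, had no peak in T2 replicate 2, and ranked 63.1 and 67.0 in T1. It was strong in both T1 libraries and near the bottom of the list or missing in the T2 libraries, so the groups do not overlap. The region was singled out after its values were seen. The gene had 2 further regions, both inside it, with ranks of at most 19.5. Along with Cd70 it was 1 of 2 members with no shared region. Cd70, the ligand of CD27, had 3 regions, each with a peak in both T2 libraries and in T1 replicate 1 and none in T1 replicate 2.

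Among the death domain receptors, every start window was open in all 4 libraries (5 of 5, for Tnfrsf21, Fas, Tnfrsf1a and 2 windows of Tnfrsf25). Tnfrsf21, the death receptor DR6, was the strongest at 91.6 and 94.6 in T2 and 92.8 and 88.0 in T1. Fas, the receptor of Fas ligand, ranked 83.6 and 78.0 in T2 and 71.7 and 72.5 in T1. At Tnfrsf25, the receptor of Tnfsf15, the start ranked 75.6 and 80.1 in T2 and 73.5 and 70.3 in T1. The groups did not overlap at Fas and Tnfrsf25, with T2 higher, though at Tnfrsf25 they overlapped once ranks were taken among shared regions only. Tnfrsf1a, the main signalling receptor for TNF, had start ranks of 67.3 and 62.1 in T2 and 73.8 and 61.1 in T1. There the groups overlapped, and T1 was higher with ranks among shared regions.

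Of the other receptors, 12 of 16 start windows were open in all 4 libraries. Tnfrsf19, a receptor also named TROY, Tnfrsf13c, the BAFF receptor, Tnfrsf14, the receptor of LIGHT, Ltbr, the lymphotoxin beta receptor, and Tnfrsf1b, the second TNF receptor, each had a start with ranks between 65.2 and 79.9 in every library. The other start window of Tnfrsf19 was weaker, at 59.1 and 46.7 in T2 and 49.9 and 39.7 in T1. Tnfrsf18, the costimulatory receptor GITR, had 78.6 and 67.6 in T2 and 69.3 and 58.9 in T1. Weaker starts belonged to Tnfrsf12a, the receptor of Tnfsf12, at 61.9 and 39.8 in T2 and 51.4 and 54.9 in T1, and to Tnfrsf11a, the receptor of RANKL, at 49.6 and 43.3 in T2 and 57.6 and 44.6 in T1. In all 3 of these last genes the groups overlapped, though at Tnfrsf11a T1 was higher with ranks among shared regions. The start of Cd27, a receptor found on lymphocytes and on early progenitors, ranked 45.5 and 32.4 in T2 and 26.9 and 22.1 in T1, with T2 higher. Of the 2 start windows of Tnfrsf9, the receptor of Tnfsf9, 1 had no peak and the other ranked 46.3 and 31.3 in T2 and 34.4 and 3.05 in T1. No start peak was found in any library at Tnfrsf13b and Tnfrsf17, which bind APRIL and BAFF, or at Tnfrsf4, the receptor of Tnfsf4. Tnfrsf17 was nonetheless open inside the gene, at chr16:11317124-11317922, with ranks of 92.1 and 94.6 in T2 and 93.6 and 90.2 in T1. Of the decoy receptors, Tnfrsf23, which binds TRAIL in mice without signalling, had the only start window, and it ranked 90.9 and 89.4 in T2 and 87.7 and 82.4 in T1.

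The regions with the highest mean ranks were mostly away from member starts. The first lay on chromosome 11 (69671209 to 69672708), within 20 kb of Tnfsf12, Tnfsf13 and the read-through gene Tnfsfm13, with ranks of 99.9 and 99.7 in T2 and 99.5 and 98.9 in T1. It also had 6 genes outside the superfamilies within 20 kb. The next lay near Cd27 (chr6:125215082-125215974), at 99.1 and 99.2 in T2 and 97.0 and 97.4 in T1, and had 2 such genes within 20 kb. A region inside Tnfrsf1b ranked 97.5 and 97.7 in T2 and 98.4 and 96.9 in T1, and one outside Tnfrsf26 ranked 97.4 and 96.3 in T2 and 96.3 in both T1 libraries. The rest of the first 10 were near or in Tnfsf13, Tnfrsf13c, Tnfrsf12a, Tnfrsf25, Tnfrsf17 and Tnfrsf21, with ranks between 88.0 and 96.7 in every library.

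Most member regions were found in both groups. Of the 207 regions, 130 were shared (62.8%, 95% Wilson interval 56.0 to 69.1), which covers counting error only. There were 12 T2-only regions, 5.80% (3.35 to 9.86), where 6.88% of all regions were T2-only. There were 5 T1-only regions, 2.42% (1.04 to 5.53), where 2.33% of all regions were T1-only. Both shares of the members lie near the background. The other 60 regions had mixed presence: 24 had a peak in 1 library, 11 in 2 and 25 in 3. Of those 25, 17 lacked a peak in 1 T1 library, which was replicate 2 in 12 of them, and 8 lacked a peak in 1 T2 library. T1 replicate 2 has the shortest list. With all lists shortened to that length, 6 of 194 member regions were T2-only (3.09%) and 8 were T1-only (4.12%), against 4.33% and 4.61% of all regions. Leaving out a library relaxes the condition. Without T2 replicate 1, T2 replicate 2, T1 replicate 1 and T1 replicate 2 in turn, T2-only regions numbered 18, 19, 24 and 17. These were 8.91%, 9.41%, 12.06% and 8.29% of member regions, against 12.54%, 15.7%, 13.07% and 9.67% of all regions. In the same order T1-only regions numbered 11, 7, 8 and 13. These were 5.45%, 3.47%, 4.02% and 6.34% of member regions, against 4.7%, 3.44%, 4.51% and 6.14% of all regions.

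The 12 T2-only regions lay at 10 members, the 5 T1-only regions at 6, and 28 members had neither. Tnfrsf1a and Tnfrsf8 had both kinds. None touched a start window, and over all genes 0.80% of start windows were T2-only and 0.08% T1-only. Inside a member lay 2 of the T2-only regions and 1 of the T1-only regions. They were weak, with a median mean rank of 17.2 for T2-only regions and 33.2 for T1-only regions, against 63.6 for shared regions. They were also narrow, with median widths of 442 bp, 318 bp and 771.5 bp in the same order. These medians were not compared with those of group-only regions away from the members, and the T1-only ones rest on 5 regions. Of 31 regions lying 15 to 20 kb from a gene body, just inside the window, 20 were shared, 1 was T2-only and 2 were T1-only. Of 20 regions lying 20 to 25 kb away, just outside it, 16 were shared, 1 was T2-only and 0 were T1-only.

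**Figure D2:**
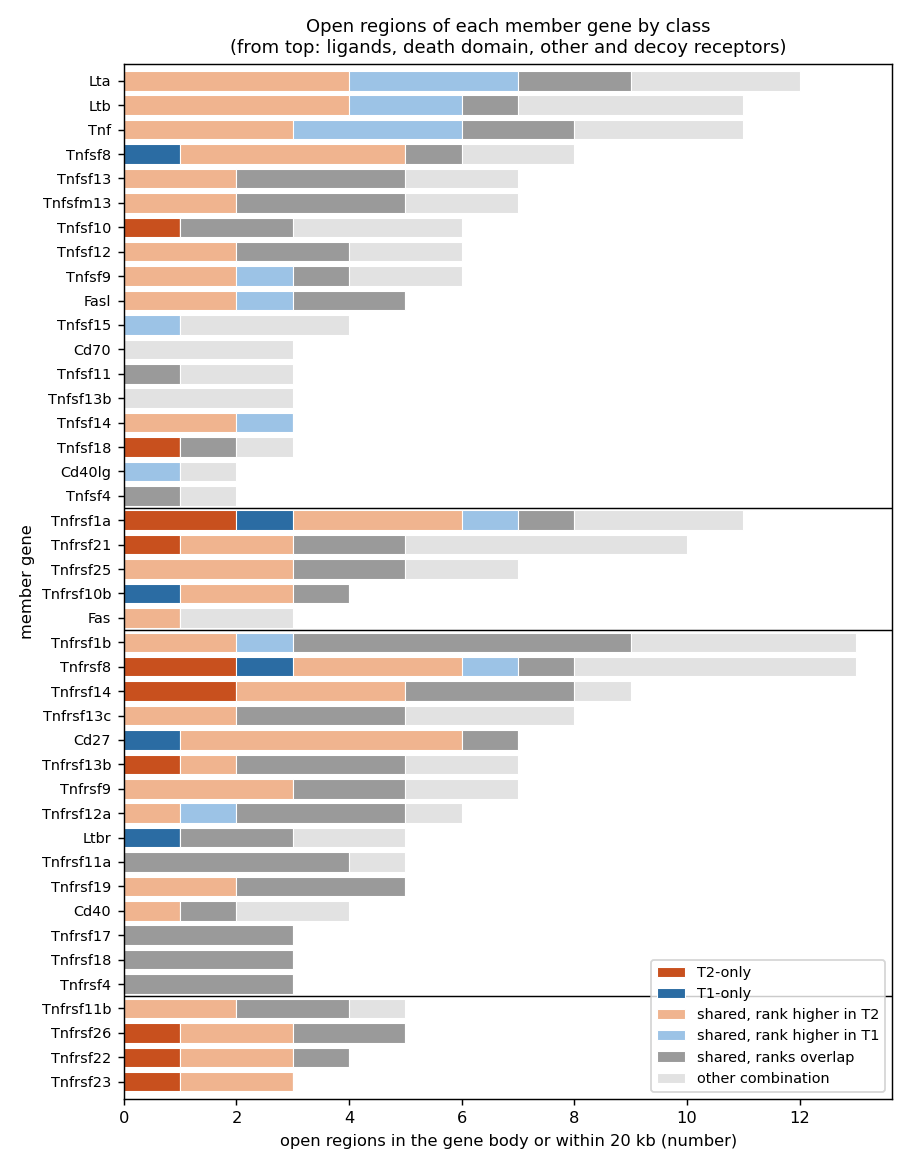
Number of open regions (x axis) of each of the 42 members (rows, by role), coloured by presence and, for shared regions, by the order of the ranks. Group-only regions number at most 3 per gene, and Cd70 and Tnfsf13b have mixed presence alone.

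By role, the 69 ligand regions held 2 T2-only and 1 T1-only region, the 35 regions of death domain receptors held 3 and 2, the 92 of other receptors held 5 and 3, and the 13 of decoy or soluble receptors held 2 and 0, where a region near members of different roles counts under each. The group-only ligand regions were at Tnfsf18 (chr1:161520130-161520629, ranks 22.5 and 16.1 in T2), at Tnfsf10 (chr3:27302570-27303061, 10.2 and 19.7 in T2) and at Tnfsf8 (chr4:63868740-63869033, 24.7 and 11.1 in T1). For the death domain receptors, Tnfrsf1a had T2-only regions of ranks 21.0 and 4.05 and of 5.56 and 17.2, Tnfrsf21 had one inside the gene (23.4 and 14.3 in T2), and Tnfrsf10b, the mouse TRAIL receptor, had a T1-only region (19.8 and 8.76).

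One T1-only region was far stronger than the rest. It lay on chromosome 6 at 125333538 to 125334163, between Ltbr and Tnfrsf1a, 15873 bp before the Tnfrsf1a start, with 1 gene outside the superfamilies within 20 kb. Neither T2 library had a peak there, and it ranked 72.5 and 64.7 in T1, with −log10 q of 48.4 and 31.7. No T2-only member region had a mean rank above 37.1. The starts of Ltbr and Tnfrsf1a on either side were open in all 4 libraries. Their ranks overlapped between the groups, and with ranks among shared regions the Tnfrsf1a start ranked higher in T1.

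**Figure D3:**
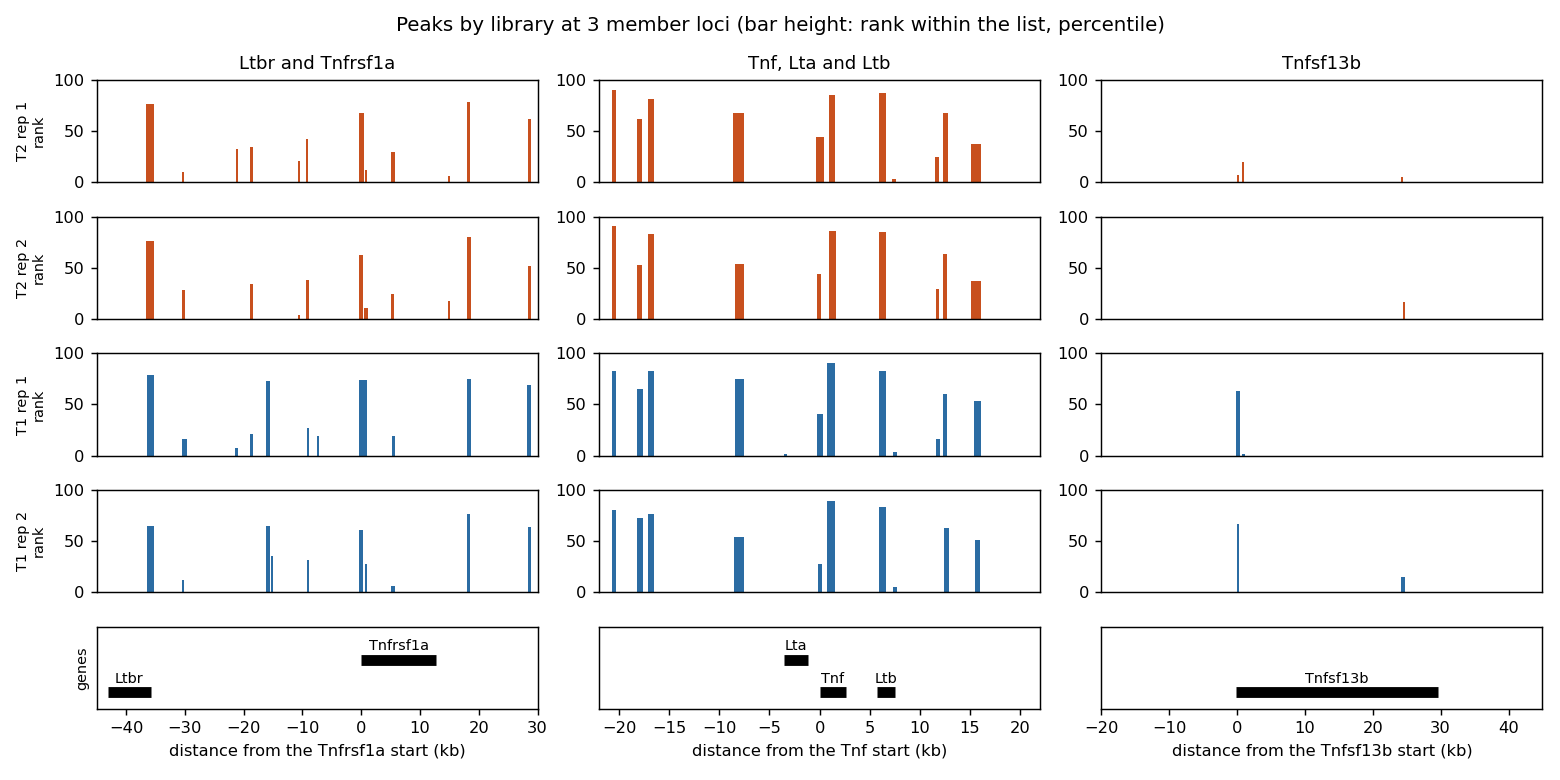
Peaks at 3 loci by library (rows, T2 above T1), with bar height the rank within the list and the x axis the distance in kb from the Tnfrsf1a, Tnf or Tnfsf13b start; black boxes are member genes. Bars about 16 kb before Tnfrsf1a are in the T1 rows alone, most bars around Tnf are in all 4 rows, and the bar at the Tnfsf13b start is tall in the T1 rows alone.

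Among the other receptors, Tnfrsf8, the lymphocyte activation receptor CD30, had 13 regions. Its T2-only regions were upstream, at chr4:145322228-145322505 with ranks of 46.1 and 28.0, and at chr4:145323278-145323760 with 1.33 and 14.0. Its T1-only region was inside the gene, at chr4:145270197-145270455, with ranks of 40.4 and 25.9. Cd27 had a T1-only region of ranks 54.3 and 27.9 at chr6:125218757-125219244, while 5 of its 6 shared regions ranked higher in T2. The T1-only region and those 5 each had 2 genes outside the superfamilies within 20 kb. Tnfrsf14 had 2 T2-only regions past its 3′ end (17.3 and 14.0, and 27.4 and 18.3), and Tnfrsf13b had 1 that was near the bottom of both T2 lists (6.04 and 1.73). The T2-only regions of the decoy receptors were 1 inside Tnfrsf26 (28.3 and 41.4), within 20 kb of Tnfrsf22 too, and 1 near Tnfrsf23 (15.1 and 27.7). Tnfrsf22, Tnfrsf23 and Tnfrsf26 are similar tandem genes on chromosome 7, so reads could be shared between copies and the values there are uncertain.

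Of the 130 shared regions, 57 ranked higher in T2 (43.8%), against 40.6% of all shared regions, and 12 ranked higher in T1 (9.23%), against 14.2%. The remaining 61 overlapped. The median difference in mean rank, T2 minus T1, was 3.88 points for members and 3.15 points for all shared regions, and it ranged from -48.6 to 29.1 among members. The median gap between replicates at these regions was 5.02 points in T2 and 4.44 points in T1. A percentile depends on the length of the list, and the T2 lists are longer. With ranks taken among shared regions only, a scale chosen after the data were seen, 37 ranked higher in T2 (28.5%), against 26.3% of all shared regions, and 22 ranked higher in T1 (16.9%), against 26.2%. The median difference was then 0.93 points for members and 0.02 points for all shared regions. With lists of equal length, 34 of 123 shared regions ranked higher in T2 (27.64%) and 21 in T1 (17.07%), against 25.7% and 26.84% of all shared regions. Without T1 replicate 1, 88 of 135 ranked higher in T2 (65.19%), against 58.48% of all shared regions. Those ranked higher in T1 made up 20.45% and 13.97% of the shared member regions (27 and 19) when T2 replicate 1 or 2 was left out, against 27.83% and 21.13% of all. They made up 16.3% and 19.72% (22 and 28) when T1 replicate 1 or 2 was, against 20.11% and 26.43% of all. By role, 17 of 39 shared ligand regions ranked higher in T2 (43.6%) and 8 in T1 (20.5%), against 40.6% and 14.2% of all shared regions. At death domain receptors 11 (61.1%) and 1 (5.56%) of 18 did, and at other receptors 23 (36.5%) and 3 (4.76%) of 63. At decoy or soluble receptors 6 (60%) and 0 of 10 did. With ranks among shared regions these counts were 10 and 9 for ligands, 6 and 2 for death domain receptors, 16 and 11 for other receptors and 5 and 0 for decoy or soluble receptors.

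**Figure D4:**
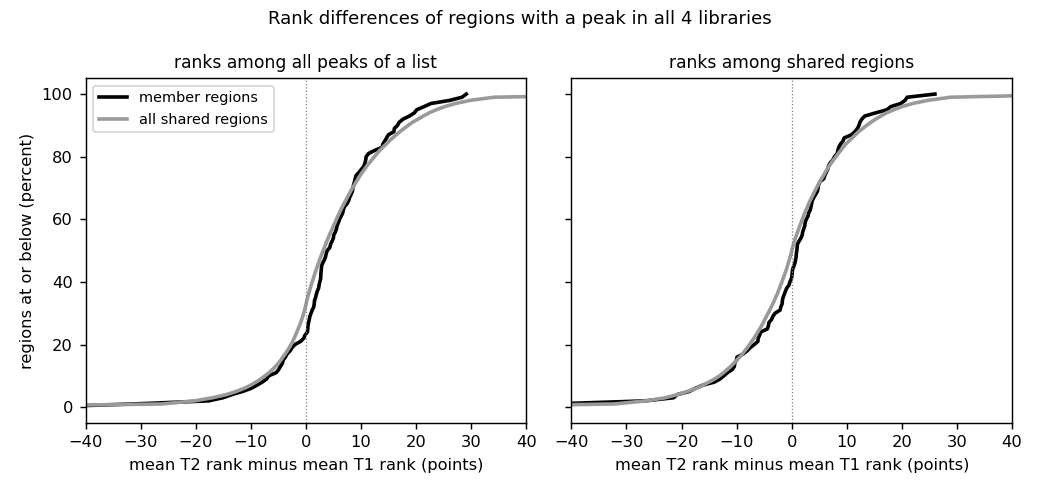
Cumulative share of shared regions (y axis, percent) by mean T2 rank minus mean T1 rank (x axis, points) for member regions (black) and all shared regions (grey), with ranks among all peaks of a list on the left and among shared regions on the right. The member curve stays close to the curve of all shared regions. Its median is 3.88 on the left and 0.93 on the right.

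The largest rank differences towards T2 were at 5 regions. The Tnfrsf8 start (chr4:145315067-145315499), the region whose sequence is given first above, ranked 60.5 and 33.5 in T2 and 24.7 and 11.1 in T1, a difference of 29.1 points that was 15.6 points without T2 replicate 1. A region 15402 bp before the Tnfsf14 start (chr17:57209325-57209841) ranked 58.1 and 71.5 in T2 and 39.9 and 31.6 in T1, also 29.1 points. At the edge of Tnfrsf10b, at chr14:69767267-69767952, the ranks were 54.9 and 48.8 in T2 and 20.8 and 31.2 in T1, a difference of 25.8 points. The gene spans 69767472 to 69784411, so this region crosses its edge with the midpoint inside. Tnfrsf10b had no start window, so whether this edge is its start was not examined. The other 2 lay at the decoy receptor cluster. The first, outside Tnfrsf26 at chr7:143605184-143605732, ranked 62.3 and 53.8 in T2 and 41.0 and 21.9 in T1, and its difference of 26.6 points was 17.1 points without T1 replicate 2. The second, at chr7:143627715-143628788, crossed the edge of Tnfrsf26 that faces Tnfrsf22, at 143627845. It ranked 56.5 and 56.7 in T2 and 35.7 and 33.0 in T1.

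The largest rank differences towards T1 included a larger one than any of these. A region outside Tnfsf9, whose product is a costimulatory ligand of T cells, ranked 33.6 and 1.16 in T2 and 66.8 and 65.1 in T1 (chr17:57112846-57113623), a difference of -48.6 points. The 2 T2 replicates themselves were far apart there, and the difference was -32.4 points without T2 replicate 2. Inside Tnfrsf1b, 13050 bp past the start at chr4:145233405-145234236, the ranks were 41.7 and 36.7 in T2 and 77.4 and 72.7 in T1, a difference of -35.9 points, and there the replicates of each group lay close together. Near Cd40lg, the ligand through which T cells help B cells, the ranks were 61.3 and 46.1 in T2 and 80.8 and 68.3 in T1 (chrX:57196021-57196786), a difference of -20.8 points that was -13.2 points without T2 replicate 2. A region near Tnfsf14 (chr17:57188558-57189036) had 17.3 and 10.5 in T2 and 27.2 and 31.3 in T1. Thus Tnfsf14 had 3 shared regions, of which the start and the upstream one ranked higher in T2 and the downstream one higher in T1.

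**Figure D5:**
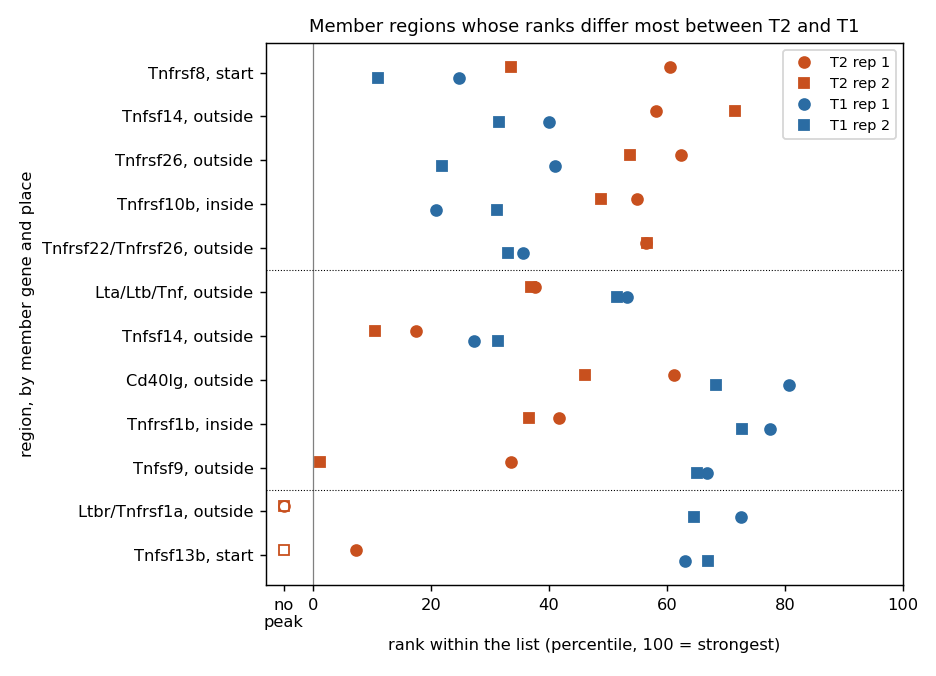
Ranks within the list (x axis, percentile) of the 5 shared regions with the largest non-overlapping difference in each direction, and below them of the Ltbr/Tnfrsf1a and Tnfsf13b regions, for T2 (orange) and T1 (blue), with open symbols for no peak. In each row the 2 orange and the 2 blue symbols do not interleave. The row labels inside and outside refer to the midpoint of the region.

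An exact two-sided permutation test over the 4 libraries gave p = 0.333 at each of these 10 regions, the smallest value the design allows. All 10 kept the same order with ranks among shared regions, where their differences were 20.7, 26.0, 18.0, 21.1 and 16.7 points for the regions towards T2 in the order given, and -50.1, -48.6, -32.2 and -14.1 points for those towards T1. The remaining region of the 10, in the Tnf cluster, had -22.5 points on that scale.

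The Tnf cluster on chromosome 17 holds Lta, Tnf and Ltb side by side, and regions there count for more than 1 gene. The region with the fifth largest difference towards T1, chr17:35185886-35186941, lay 8094 bp before the Ltb start and ranked 37.7 and 37.0 in T2 and 53.2 and 51.5 in T1, a difference of -15.0 points. Inside Tnf, 1196 bp past its start at chr17:35200407-35201216, the ranks were 85.5 and 85.8 in T2 and 90.4 and 89.4 in T1. At the Tnf start itself T2 ranked higher, with the values given above, but the groups overlapped with ranks among shared regions. Inside Ltb the ranks were 87.0 and 84.9 in T2 and 82.9 and 83.4 in T1. Towards T1, 3 of the 8 shared regions of Tnf ranked higher on both scales, and towards T2, 3 did on the first scale and 0 on the second.

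Further members, picked after their values were seen, also had regions without overlap. Of its shared regions, Cd27 had 5 of 6 ranked higher in T2 on both scales, among them chr6:125221956-125222510 with 50.5 and 51.9 in T2 and 33.1 and 31.6 in T1. Each of these 5 also had 2 genes outside the superfamilies within 20 kb. Tnfsf8 had 4 of 5 ranked higher in T2, and 2 of 5 with ranks among shared regions. One inside Tnfsf8 (chr4:63840479-63840916) had 84.0 and 83.0 in T2 and 66.7 and 67.1 in T1. At Tnfrsf11a the groups overlapped at all 4 shared regions on the first scale, and 3 of 4 ranked higher in T1 among shared regions. The region at the Tnfsfm13 start, which overlaps Tnfsf12 as well (chr11:69695257-69696274), ranked 72.3 and 70.6 in T2 and 55.3 and 44.2 in T1, and T2 was higher on both scales. These 2 genes overlap, so the region belongs to neither alone. Tnfrsf11b, which encodes the soluble RANKL decoy osteoprotegerin, had a region inside the gene at 94.8 and 95.7 in T2 and 82.6 and 86.8 in T1.

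The intracellular side of the pathway was described with a list of 42 genes for adaptors, kinases, regulators and a few related receptors, such as Traf1, Tradd, Ripk1, Ikbkb and Nfkb1. All 42 matched, and their 264 regions included 0 of the member regions. Of these, 168 were shared, 12 were T2-only (4.55%) and 3 were T1-only (1.14%), against 6.88% and 2.33% of all regions. Among the shared ones 72 ranked higher in T2 (42.9%) and 19 in T1 (11.3%), with a median difference of 2.85 points. Over all shared regions the values were close, at 40.6%, 14.2% and 3.15 points. With ranks among shared regions 47 ranked higher in T2 (28.0%) and 38 in T1 (22.6%), with a median of 0.42 points. Over all shared regions that scale gave 26.3%, 26.2% and 0.02 points. T2-only regions lay at 9 genes, with 2 each at Traf1, Traf3 and Nfkb1. The strongest was at Traf2, an adaptor of Tnfrsf1a and Tnfrsf1b, with ranks of 56.6 and 54.2 in T2. The T1-only regions were at Map3k7, the kinase TAK1 (41.4 and 30.6), at Ikbkb, a kinase of the NF-kappaB pathway (36.3 and 37.3), and at Nfkbia, which encodes its inhibitor (21.5 and 30.6).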

How the data were processed

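ATAC-seq peak lists of 2 T2 and 2 T1 libraries of sorted MPP3 cells were used. Per the submitters' processing notes, the authors used Bowtie2, SAMtools and MACS2 with the genome build mm10. For their versions, settings and read filters, the sources used here give nothing. Peaks were called per library, as the peak names in the deposited lists show. The deposited fold value of a peak is a ratio to its local background, the deposited −log10 p and −log10 q give its significance there, and the deposited score is derived from the −log10 q. Every deposited −log10 q was at least 2.00. These are the authors' own values and carry no read counts, so no count model was fitted, depth is unknown, and the values served only to rank peaks within a list.

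Peaks of chromosomes 1 to 19, of X and of Y were joined into regions where they shared at least 1 bp (Python 3.11.15, pandas 2.3.3, numpy 2.4.6, scipy 1.17.1). Percentile ranks used the ninth column, and gene positions and start windows came from RefSeq on GRCm38.p6, the assembly of mm10. Named genes were those with a group-only region, with 1 of the 10 strongest regions, or with 1 of the 5 largest non-overlapping rank differences per direction, and others are given by role. The members and lists were chosen with earlier results of these data known. Alternatives were stricter peaks, equal list lengths, a coverage of 0.5 of a region, other gene windows, ranking by the fold value, each library left out, a replicate block and ranks among shared regions. The code was tested on simulated data. One marker gene is not reported here.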

Additional observations from a re-analysis of the deposited data

How the results depend on the processing

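With every list shortened to the length of the shortest there were 6 T2-only and 8 T1-only member regions, 34 shared regions ranked higher in T2 and 21 in T1, and the median difference was 0.68 points. There Tnfrsf1a had T2-only minus T1-only regions of -1. With peaks required to cover 0.5 of a region, 14 of 207 regions were T2-only (6.76%) and 9 were T1-only (4.35%). Of all regions 7.86% and 2.73% were. With gene bodies alone (0 kb), 2 of 85 regions were T2-only (2.35%) and 1 was T1-only (1.18%), against 6.88% and 2.33% of all regions. There 26 of 57 shared regions ranked higher in T2 (45.61%) and 4 in T1 (7.02%). Of all shared regions 40.63% and 14.18% did. Tnfrsf8 then had a balance of -1. With 50 kb, 20 of 331 were T2-only (6.04%) and 7 were T1-only (2.11%), and the shares over all regions are the same as with 0 kb. There 90 of 209 shared regions ranked higher in T2 (43.06%) and 21 in T1 (10.05%), so the counts moved with the number of regions. With ranks among shared regions, chosen after seeing the data, 37 ranked higher in T2 and 22 in T1, with a median of 0.93 points.

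With each library left out in turn, T2-only regions numbered 17 to 24, T1-only regions 7 to 13, shared regions ranked higher in T2 69 to 88 and in T1 19 to 28, and the median lay between 3.42 and 5.63 points. Fewer libraries must then meet each condition. The T2-only share was 8.29% to 12.06% of members and 9.67% to 15.7% of all regions. The T1-only share was 3.47% to 6.34% of members and 3.44% to 6.14% of all regions. Shared regions ranked higher in T2 in 52.27% to 65.19% of members and 48.95% to 58.48% of all. They ranked higher in T1 in 13.97% to 20.45% of members and 20.11% to 27.83% of all. With the replicate block, which compares same-numbered libraries, 73 of 130 shared regions ranked higher in T2 (56.15%), against 49.31% of all shared regions. In T1 16 ranked higher (12.31%), against 19.39% of all shared regions. The labels tie the numbers to no shared animal or batch, and deviations of same-numbered libraries over 44274 shared regions had a correlation of 0.0187, so the numbers were not taken as pairs. Over the named regions' rank differences, 182 values under the alternatives moved by less than the spread between replicates and 30 moved further. The sign changed in 0 of 132 values at the 13 regions whose groups did not overlap. Leaving out 1 library cannot by itself reverse groups that do not overlap, and other gene windows leave the ranks unchanged. Many of the 132 values were thus fixed by the choice of regions and do not measure stability. At the 7 regions whose groups overlapped, the sign changed in 13 of 80 values. Group-only counts at named genes stayed within 1.5 times in 89 cases, moved further in 49 and changed sign in 2. A minimum −log10 q of 5 or of 10 kept the group-only and rank counts summed over all members within 1.5 times, though single genes lost group-only regions. Ranking by the fold value cannot change presence. It kept the rank counts within 1.5 times, with 42 higher in T2 (32.31%) and 15 in T1 (11.54%). Of all shared regions 31.81% and 16.78% were. Unknown depth limits every absence to these lists.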
